A study of Homo sapiens with 4 samples.

Results

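Cadherins and cell adhesion molecules were followed on 4 Illumina bead arrays of the human melanoma line A2058. The list held 10 genes, of which 9 had a probe with a single gene symbol in the platform annotation and are reported with all 16 of their probes, out of 20045 genes and 30112 such probes in all. CDH13, the listed GPI-anchored cadherin, was not analysed here. Every probe of a listed symbol was taken whatever its signal.

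The arrays cross 2 cell states with 2 oxygen conditions. Parental A2058 cells and cancer stem-like cells were each kept under normoxia or hypoxia, and every group has a single array (n = 1). The stem-like cells were derived from the parental line by selection with 100 uM carmustine, a DNA-alkylating drug, for 6 months, and whether they were 1 clone or a mixed population is not stated in the labels. All cells grew in DMEM with 10% serum, and neither the oxygen level nor the duration of hypoxia is stated. No group had a second array, so no difference has a check within its group, and none was tested; each value describes these cultures only.

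Cadherins are transmembrane proteins that join neighbouring cells through calcium-dependent contacts, and their classical members are tied to the actin skeleton by catenins. Normal melanocytes are held to keratinocytes by E-cadherin, the product of CDH1, and loss of E-cadherin with gain of N-cadherin, the product of CDH2, is a well-known feature of melanoma. NCAM1, L1CAM and ICAM1 belong to the immunoglobulin superfamily, whose members bind like molecules, integrins or matrix. Podocalyxin, the product of PODXL, is a heavily charged sialomucin of the CD34 family that reduces contact between kidney podocytes.

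RefSeq's promoter table (GRCh38.p14) held 4 of the members, and the 250 bases before the start of CDH2 and ICAM1 are shown, the first because its RNA differed by over 2-fold and the other because ICAM1 is known for its induction by cytokines through NF-kB. Capitals mark the E-box CACCTG, the hypoxia response cores ACGTG and GCGTG, and the letters GGAAATTCC, a form of NF-kB site known from the ICAM1 promoter, each searched on both strands. CDH2 had 2 annotated starts, at chr18:28177131-28177380 and chr18:28036642-28036891 on the minus strand, and ICAM1 had 1, at chr19:10270870-10271119 on the plus strand.
CDH2 at the first of its starts: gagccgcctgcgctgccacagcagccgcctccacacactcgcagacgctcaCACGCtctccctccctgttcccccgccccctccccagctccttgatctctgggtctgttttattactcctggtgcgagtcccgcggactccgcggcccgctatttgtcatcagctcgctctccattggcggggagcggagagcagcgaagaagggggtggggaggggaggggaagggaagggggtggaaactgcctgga
CDH2 at the other start: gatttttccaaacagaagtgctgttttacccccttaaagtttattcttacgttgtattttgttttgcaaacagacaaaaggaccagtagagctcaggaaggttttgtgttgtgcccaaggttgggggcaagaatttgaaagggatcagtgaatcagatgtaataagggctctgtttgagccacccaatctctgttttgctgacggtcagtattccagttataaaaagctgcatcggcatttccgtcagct
ICAM1: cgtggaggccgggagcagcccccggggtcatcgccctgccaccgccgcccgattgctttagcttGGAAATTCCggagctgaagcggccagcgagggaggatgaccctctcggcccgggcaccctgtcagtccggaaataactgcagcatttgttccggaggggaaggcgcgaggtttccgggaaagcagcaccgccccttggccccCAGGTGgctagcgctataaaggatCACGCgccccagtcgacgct

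The CDH2 window held 1 hypoxia response core, CACGC read on the other strand, beginning 199 bases before the first of its starts, and no E-box. The ICAM1 window held GGAAATTCC 186 bases, the E-box CAGGTG 44 bases and CACGC 20 bases before the start. Over all 35116 windows of the table, 17.5% held the E-box, 43.2% a hypoxia response core and 0.413% the GGAAATTCC form. The windows of CDH19 and L1CAM held none of these letters. The motifs do not overlap each other in these windows, and a match is a description of the sequence.

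Each array detected 16432 to 16945 of its 47315 probes, that is, gave them a detection p-value under 0.01 against the negative control beads. Medians of the raw signal over such probes were 295 and 301 for the parental and 259 and 266 for the stem-like arrays. Levels below are log2 of the background-corrected and quantile-normalized signal, on which the lowest detected probe of an array stood between 5.22 and 5.29. Folds are ratios of these normalized signals, and a fold against an undetected signal, which was raised to that floor, is written as at least N-fold. The SD between log2 folds of probes for the same gene was 0.30 for the cell states in normoxia, 0.28 for them in hypoxia, 0.20 for hypoxia in parental cells and 0.23 for hypoxia in stem-like cells. Array and culture error is not part of this SD.

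The labelled cell type was checked against marker genes. Of 6 melanocyte markers with a probe, 6 were detected on both parental arrays and 3 on both stem-like arrays, where MLANA, TYR and TYRP1 were not detected. PMEL, a melanosome protein gene, had levels of 12.77, 12.94, 5.74 and 5.28 in parental normoxia, parental hypoxia, stem-like normoxia and stem-like hypoxia, the order used throughout. SOX10, a transcription factor of the melanocyte lineage, was detected on all 4 arrays, at 11.04, 11.12, 10.26 and 9.94. The stem-like arrays thus differed from the parental ones in pigment cell genes beside every adhesion gene difference between cell states given here, and their part in those differences was not tested. In such bulk RNA, fewer cells of a type and less RNA per cell cannot be told apart.

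Marker genes of other cells that carry adhesion molecules were also read. Of 7 endothelial markers, 0 or 1 were detected per array, and PECAM1, CDH5, KDR, CLDN5 and EMCN were detected on none, with a log2 summed level of 7.32 to 7.63. Of 6 leukocyte markers, 1 to 3 were detected, and PTPRC, CD3E and ITGAM on none, with summed levels of 9.66 and 9.71 in parental cells and 10.12 and 10.17 in stem-like cells. LYZ was detected in stem-like cells alone. In normoxia, 2 of the 3 leukocyte markers detected on either array were 2-fold higher in stem-like cells and none was 2-fold lower. In hypoxia 1 of 3 was higher and none lower. Among genes detected on either array, 6.67% were 2-fold higher in normoxia and 7.24% in hypoxia. Of 11 epithelial markers, 3 were detected on each array, and KRT5, KRT14 and EPCAM on none, with summed levels of 10.73 to 10.88. The set differed between the states: KRT8 was detected in stem-like cells alone, at least 5.89-fold higher in normoxia, and ESRP1 in parental cells alone, at least 1.60-fold higher there in normoxia. In normoxia, 2 of the 4 epithelial markers detected on either array were 2-fold higher in stem-like cells and none was 2-fold lower. In hypoxia 2 of 4 were likewise higher and none lower, against the same 6.67% and 7.24% of genes. The part of the epithelial markers in the adhesion gene differences was not tested. Of 8 fibroblast markers, 2 or 3 were detected, and COL1A2, COL3A1, PDGFRA and PDGFRB on none, with summed levels of 9.82 and 10.02 in parental and 8.87 and 8.75 in stem-like cells. In normoxia, 1 of the 4 fibroblast markers detected on either array was 2-fold lower in stem-like cells and none was 2-fold higher. In hypoxia 2 of 3 were lower and 1 was higher. Over all genes, 5.87% were 2-fold lower in normoxia and 5.97% in hypoxia. Of 4 glial markers, 1 was detected on each array, and S100B, GFAP and NGFR on none, with summed levels of 8.26, 8.05, 9.18 and 9.19. The detected marker, SOX2, had log2 folds of 1.14 in normoxia and 1.41 in hypoxia for stem-like against parental cells. The part of the leukocyte, fibroblast and glial markers in the adhesion gene differences was not tested.

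The comparison of the cell states asked how the carmustine-selected cells differ from the line they came from. In the stem-like cells, RNA for N-cadherin and podocalyxin was higher and RNA for NCAM1 was lower, in both oxygen conditions. Of the 5 members detected on either array in normoxia, 2 were at least 2-fold higher and 1 at least 2-fold lower, while 12.5% of 10758 genes passed 2-fold in either direction, 6.67% higher and 5.87% lower. In hypoxia 2 of 6 were higher and 1 lower, while 13.2% of 11000 genes passed, 7.24% higher and 5.97% lower. The members were chosen with earlier results of these data known, so their share is a description. Here and below, all genes means the genes detected on at least 1 of the 2 arrays compared, unless stated otherwise. The median log2 fold of the detected members was 0.15 in normoxia and 0.16 in hypoxia, against -0.01 and 0 over all genes.

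**Figure D1:**
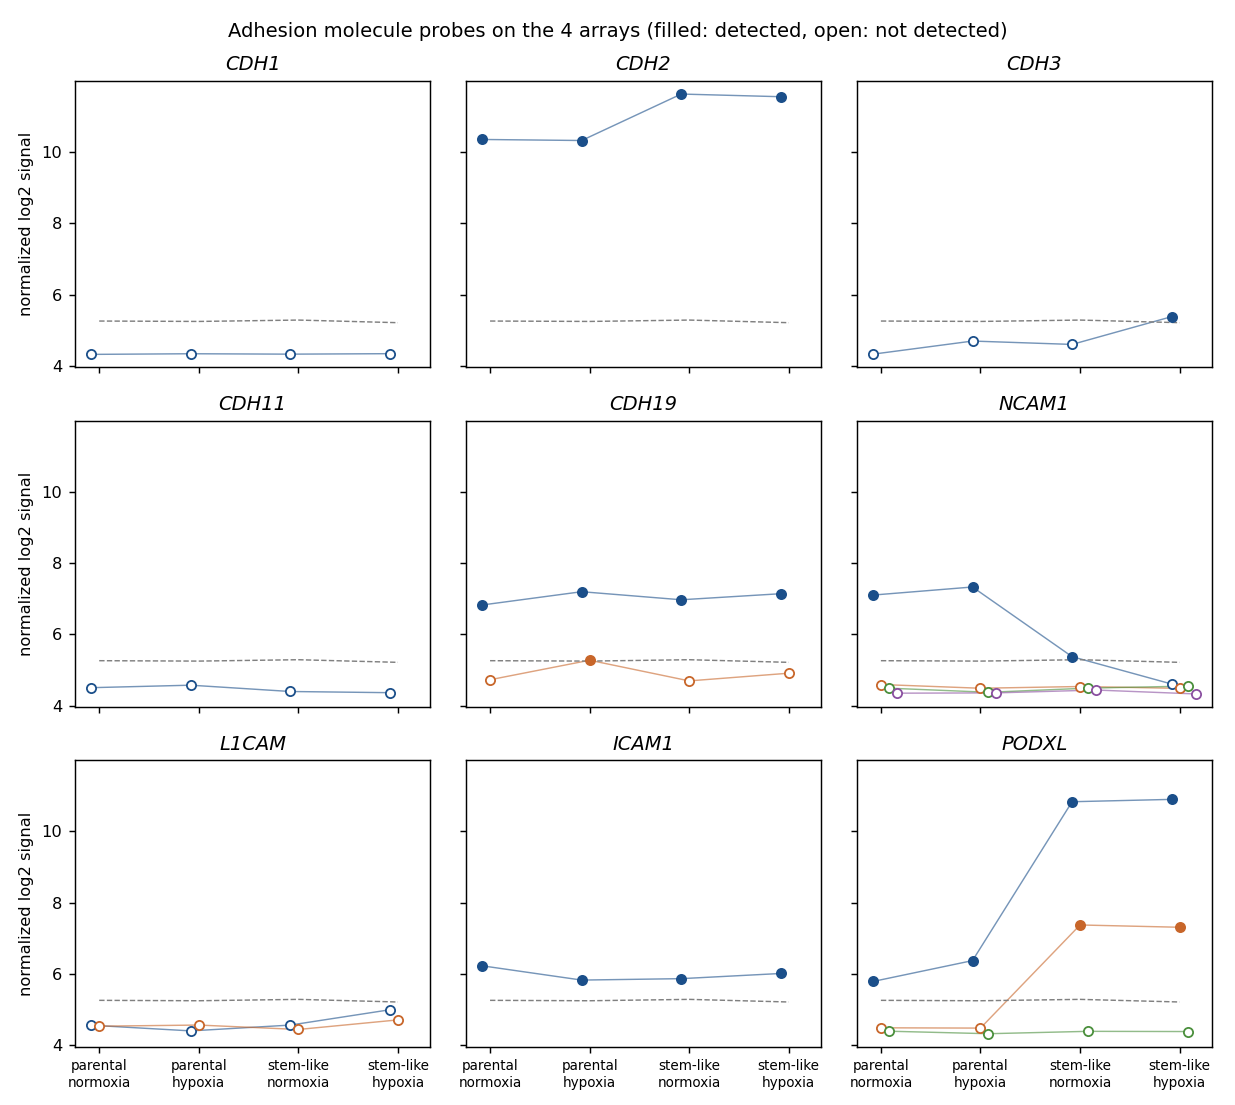
Normalized log2 signal of every probe of 9 adhesion genes on the 4 arrays, 1 line per probe, with filled points for detected and open points for undetected signals and a dashed line at the lowest detected signal of each array. PODXL goes from 5.79 and 6.38 in parental cells to 10.83 and 10.90 in stem-like cells by its brightest probe, and CDH1 lies below the dashed line on all 4 arrays.

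Among the type I cadherins, CDH2 was detected on every array and was higher in stem-like cells, CDH1 was detected on none, and CDH3 on 1. CDH2 had raw signals of 1528, 1499, 2911 and 2853 and normalized levels of 10.35, 10.33, 11.63 and 11.55. Both stem-like arrays were above both parental arrays, and hypoxia and normoxia lay close to each other within each state. CDH2 was 2.42-fold higher in stem-like cells in normoxia and 2.34-fold higher in hypoxia. In normoxia, 4.60% of the 10758 detected genes had a log2 fold at least as high.

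CDH1 had raw signals of 98.6, 103, 98.2 and 100.05, against negative control means, inferred from the detection p-values, of 110, 113, 108 and 108. Its 1 probe was detected on none of the arrays, with detection p-values of 0.853 to 0.916. No fold can be given, and RNA for E-cadherin was not detectable with this probe in either state. CDH3, which encodes P-cadherin, had raw signals of 99.0, 120, 112 and 134, and only the last, stem-like hypoxia, was detected, with a detection p-value of 0.0039. It was at least 1.10-fold higher there than in parental hypoxia. This bound is smaller than the between-probe SD and does not give the size of the fold. On the log2 scale the bound was 0.44 with a detection p-value under 0.05. Without a detection filter the log2 fold was 0.68, taken against an undetected parental signal.

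The type II cadherins showed no difference between the states past 2-fold. CDH19, a cadherin of Schwann cell precursors and melanocytes, had raw signals of 214, 257, 203 and 230.4 and normalized levels of 6.83, 7.20, 6.97 and 7.14 by its brighter probe. The ranges of the 2 states overlapped, with a log2 fold of 0.15 for stem-like against parental cells in normoxia and -0.06 in hypoxia. Its other probe was detected only in parental hypoxia, at a level of 5.28. CDH11, the osteoblast cadherin, had raw signals of 101 to 116 and was detected on no array.

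In the immunoglobulin superfamily, NCAM1 was lower in stem-like cells, ICAM1 lay within 2-fold and L1CAM was not detected. The brightest NCAM1 probe had raw signals of 239, 273, 132 and 113 and normalized levels of 7.10, 7.33, 5.38 and 4.61. Both parental arrays were above both stem-like arrays, and in stem-like hypoxia the probe was not detected, with a detection p-value of 0.261. NCAM1 was 3.31-fold lower in stem-like normoxia and at least 4.32-fold lower in stem-like hypoxia. In normoxia 1.74% of the 10758 detected genes had a log2 fold at least as low. Its other 3 probes were detected on no array, with raw signals of 98.8 to 113, so the difference rests on 1 probe. Without background correction the log2 fold was -0.71 in normoxia with a bound of -0.88 in hypoxia, and from the authors' deposited table it was -0.77 with a bound of -0.96, none of which passes 2-fold.

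ICAM1, the endothelial and tumour ligand of leukocyte integrins, had raw signals of 172, 157, 146 and 157 and normalized levels of 6.23, 5.83, 5.87 and 6.02. The 2 states overlapped, with 1.28-fold lower signal in stem-like normoxia and 1.14-fold higher signal in stem-like hypoxia than in the parental cells of the same condition. L1CAM, a neural adhesion molecule, had raw signals of 105 to 124 over its 2 probes. No L1CAM signal was detected, and the highest, in stem-like hypoxia, had a detection p-value of 0.034.

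PODXL had the widest span of all members. Its brightest probe had raw signals of 151, 187, 1721 and 1890.2 and normalized levels of 5.79, 6.38, 10.83 and 10.90. The parental signals were detected, with a detection p-value of 0.0013 each, and the stem-like signals stood far above them. PODXL was 32.9-fold higher in stem-like cells in normoxia and 22.9-fold higher in hypoxia. Only 6 of 10758 genes in normoxia and 19 of 11000 in hypoxia had a log2 fold at least as high, PODXL included.

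The other PODXL probes did not all follow. A second probe had raw signals of 109, 112, 237 and 247 and was detected in stem-like cells alone, where it was at least 4.33-fold higher in normoxia and at least 4.17-fold higher in hypoxia. The remaining probe had raw signals of 102 to 104 and was detected on no array. The direction is thus shared by 2 of 3 probes, and the size depends on the probe and on the background step. The raw signals themselves stood in a ratio of 11.4 in normoxia and 10.1 in hypoxia, and the authors' deposited values in a ratio of 12.9 and 11.4.

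**Figure D2:**
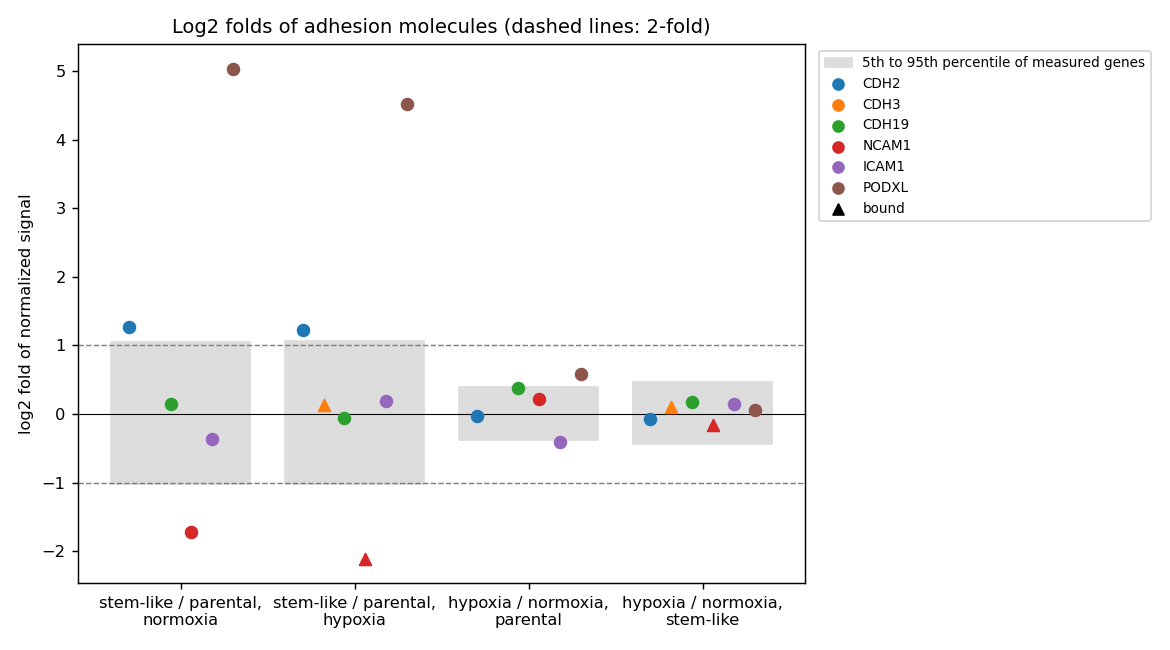
Log2 folds of normalized signal for the 6 adhesion genes with a detected signal in 4 comparisons, with triangles for bounds, dashed lines at 2-fold and grey boxes from the 5th to the 95th percentile of genes detected on both arrays. PODXL stands at 5.04 and 4.52 and NCAM1 at -1.73 and at most -2.11 between the cell states, and no point passes 2-fold for hypoxia.

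Hypoxia was compared with normoxia within each cell state. None of the 5 detected members in parental cells and none of the 6 in stem-like cells was 2-fold higher or lower, while 0.46% of 10442 genes passed 2-fold in parental cells, 0.383% higher and 0.0766% lower, and 0.68% of 10595 genes in stem-like cells, 0.491% higher and 0.189% lower. PODXL was 1.5-fold higher in parental hypoxia and 1.05-fold higher in stem-like hypoxia. Its log2 fold in parental cells was 0.59 as reported, 0.22 without background correction, 0.24 from the authors' deposited table and 0.29 as the mean of detected probes, and in stem-like cells it was 0.07, 0.06, 0.07 and 0.00 in that order. In parental cells 1.83% of the 10442 detected genes had a log2 fold at least as high as that of PODXL. CDH19 was 1.29-fold and NCAM1 1.17-fold higher in parental hypoxia, and ICAM1 was 1.32-fold lower. For CDH2 the log2 fold was -0.03 in the parental and -0.07 in the stem-like state, both inside the between-probe SD.

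The 4 comparisons share the 4 arrays, so their values are not independent of each other. The difference between the hypoxia log2 folds of the cell states, stem-like minus parental, was available for the 4 members detected on every array. It was 0.55 for ICAM1, -0.52 for PODXL, -0.20 for CDH19 and -0.05 for CDH2. None reached a size of 1, as 0.666% of 9006 genes did, and 7.54% of these genes had a difference at least as large as that of ICAM1. The SD of this difference over all 9006 genes was 0.31. For NCAM1 the log2 fold was 0.23 in the parental state and at most -0.16 in the stem-like state, where its hypoxia signal was not detected.

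Other genes of cadherin contacts came from further lists, whose members were likewise chosen with earlier results known. Over all genes, 6.67% were 2-fold higher and 5.87% lower in stem-like normoxia, and 7.24% and 5.97% in stem-like hypoxia. Of 37 other cadherins and protocadherins listed, 34 had a probe and 6 were detected in normoxia; CELSR2, a seven-pass cadherin of planar cell polarity, was 2.19-fold lower and no member was 2-fold higher. That count of 1 was 0 without background correction, under median scaling, with an offset of 50 and from the authors' deposited table. In hypoxia CELSR2 was 2.72-fold lower, and of 9 detected 1 was lower and none higher. The hypoxia count stayed at 1 under median scaling and with an offset of 50. It was 0 without background correction and from the authors' deposited table. Of 10 catenins and junction adaptors detected in normoxia, 1 was higher and 2 were lower, of which none of the lower ones passed 2-fold without background correction or from the authors' deposited table. PTPRF, a receptor tyrosine phosphatase, was 2.76-fold higher in normoxia and 2.98-fold higher in hypoxia by its brightest probe. Another PTPRF probe had log2 folds of 0.75 and 1.31. PTPRM, a homophilic phosphatase bound to cadherins, was 3.08-fold lower in normoxia and 2.51-fold lower in hypoxia. CTNNB1, the gene of beta-catenin, was 2.18-fold lower in normoxia and 2.99-fold lower in hypoxia, and its other probe measured on both arrays gave log2 folds of -1.10 and -1.37. A further CTNNB1 probe gave a bound of -0.06 in normoxia, and another a bound of -0.29 in hypoxia. CTNNA1, which encodes the actin-binding alpha-catenin and was named after its values were seen, had log2 folds of 0.56 and 0.58. In hypoxia the list had 2 members higher and 2 lower of 13.

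Of 3 desmosome genes detected in normoxia, 2 were lower and none was 2-fold higher, against 5.87% and 6.67% of all genes. The count of 2 in normoxia was 1 without background correction, under median scaling, with an offset of 50 and from the authors' deposited table. In hypoxia 2 of 5 were lower and none was 2-fold higher, against 5.97% and 7.24% of all genes. The hypoxia count stayed at 2 under median scaling and with an offset of 50. It was 1 without background correction and from the authors' deposited table. DSG2, the desmosomal cadherin desmoglein-2, had levels of 8.86 and 8.95 in parental cells, was not detected in stem-like cells, and was at least 11.8-fold lower in normoxia and at least 13.3-fold lower in hypoxia. A weaker DSG2 probe was at least 0.38 lower on the log2 scale in normoxia and not detected in hypoxia. DSP, which encodes the desmosomal linker desmoplakin, was 2.10-fold lower in normoxia and 2.78-fold lower in hypoxia by its brightest probe. The other DSP probes were detected on neither normoxia array.

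Other immunoglobulin-type adhesion molecules moved in both directions. Of 19 detected in normoxia, 4 were higher and 3 lower, against 6.67% and 5.87% of all genes, with a median log2 fold of 0.22. Without background correction 2 were higher and 2 lower. CEACAM1, a homophilic receptor of the carcinoembryonic antigen family that is known from melanoma, was 10.6-fold lower, and its other probes gave a log2 fold of -3.14 and a bound of -3.13. ALCAM, the activated leukocyte cell adhesion molecule, was 4.02-fold lower in normoxia and 2.11-fold lower in hypoxia. MPZL2, an epithelial junction protein gene, was at least 4.87-fold higher and ICAM2, a relative of ICAM1, at least 4.60-fold higher. A weaker MPZL2 probe, detected on both normoxia arrays, gave a log2 fold of 0.36 there and none in hypoxia. MPZL2 was the only member of the 10 further lists past 2-fold for hypoxia, at 2.29-fold higher in stem-like cells, where 0.68% of all genes passed. It did not pass without background correction, from the authors' deposited table or as the mean of detected probes, and with a detection p-value under 0.05 or no filter 1 gene of the NF-kB list passed too.

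In hypoxia 5 of 20 immunoglobulin-type members were higher in stem-like cells and 3 lower, against 7.24% and 5.97% of all genes. Without background correction, with an offset of 50 and from the authors' deposited table, 2 were higher and 1 lower. Under median scaling and as the mean of detected probes, 4 were higher and 3 lower. MCAM, the melanoma cell adhesion molecule, which was named after its values were seen, was at least 2.90-fold higher in stem-like normoxia and 2.005-fold higher in hypoxia. Its hypoxia fold lies at the edge of the 2-fold rule. MPZL2 was at least 11.3-fold and ICAM2 at least 6.75-fold higher in stem-like hypoxia. CEACAM1 was 11.2-fold lower.

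Genes that work with the members were read from the same kind of list. Of 8 podocalyxin relatives and membrane-cytoskeleton linkers detected in normoxia, none was past 2-fold, and of 9 in hypoxia 2 were higher, against 7.24% of all genes. None passed without background correction or from the authors' deposited table, and 1 passed with an offset of 50. The 2 were the podocalyxin relative PODXL2 at 2.74-fold and ENG at 2.08-fold, both named after their values were seen. ENG encodes endoglin, which is neither a podocalyxin relative nor a membrane-cytoskeleton linker, so 1 of the 2 lies outside the named classes. EZR, which encodes ezrin, the linker that ties podocalyxin to actin, had log2 folds of 0.30 and 0.24, and NHERF1, the scaffold of that complex, of 0.70 and 0.39; both were also named after their values were seen. The polysialyltransferase genes ST8SIA2 and ST8SIA4, whose enzymes modify NCAM1, were detected on no array.

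Of 6 epithelial-mesenchymal transcription factors detected in normoxia, 1 was higher and 1 lower, against 6.67% and 5.87% of all genes, and both counts were the same under the 7 other processing settings at 2-fold. SNAI2, which encodes the CDH1 repressor Slug, was at least 22.7-fold lower in normoxia and 14.3-fold lower in hypoxia, with a second probe at bounds of -3.47 and -3.10 on the log2 scale. PRRX1, a mesenchymal homeobox gene, was at least 11.2-fold higher in normoxia and at least 11.4-fold in hypoxia by its brightest probe. Its other probe was detected on neither normoxia array. ZEB2 and TWIST1, named after their values were seen, had log2 folds of -0.98 and -0.16 in normoxia. Of 10 sheddase and gamma-secretase genes, ADAM19 was 2.89-fold higher in normoxia and 1.97-fold higher in hypoxia, and the presenilin gene PSEN2 was 2.46-fold and 2.17-fold lower. The other ADAM19 probe was detected on neither normoxia array. The 1 lower call of that list was lost without background correction in both conditions, and from the authors' deposited table in hypoxia.

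Of the integrin subunits that bind ICAM1 or L1CAM, ITGB3 was 2.38-fold higher in normoxia and 1.58-fold higher in hypoxia, the others of the 5 detected lying within 2-fold. ITGB3 did not pass without background correction or from the authors' deposited table. Over all genes, 6.67% were 2-fold higher and 5.87% lower in stem-like normoxia. Of 7 NF-kB subunits and inhibitors detected in normoxia, TNFAIP3, a feedback inhibitor, was 2.41-fold lower, and none was 2-fold higher, against these same shares. No gene of the list passed without background correction, with an offset of 50 or from the authors' deposited table. The median over these 7 genes was 0.07 on the log2 scale. In hypoxia it was 0.37 over 8 detected genes, of which 1 was lower and none higher, against 5.97% and 7.24% of all genes. NFKBIA, another feedback gene, named after its values were seen, had log2 folds of 0.60 in normoxia and 0.82 in hypoxia.

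**Figure D3:**
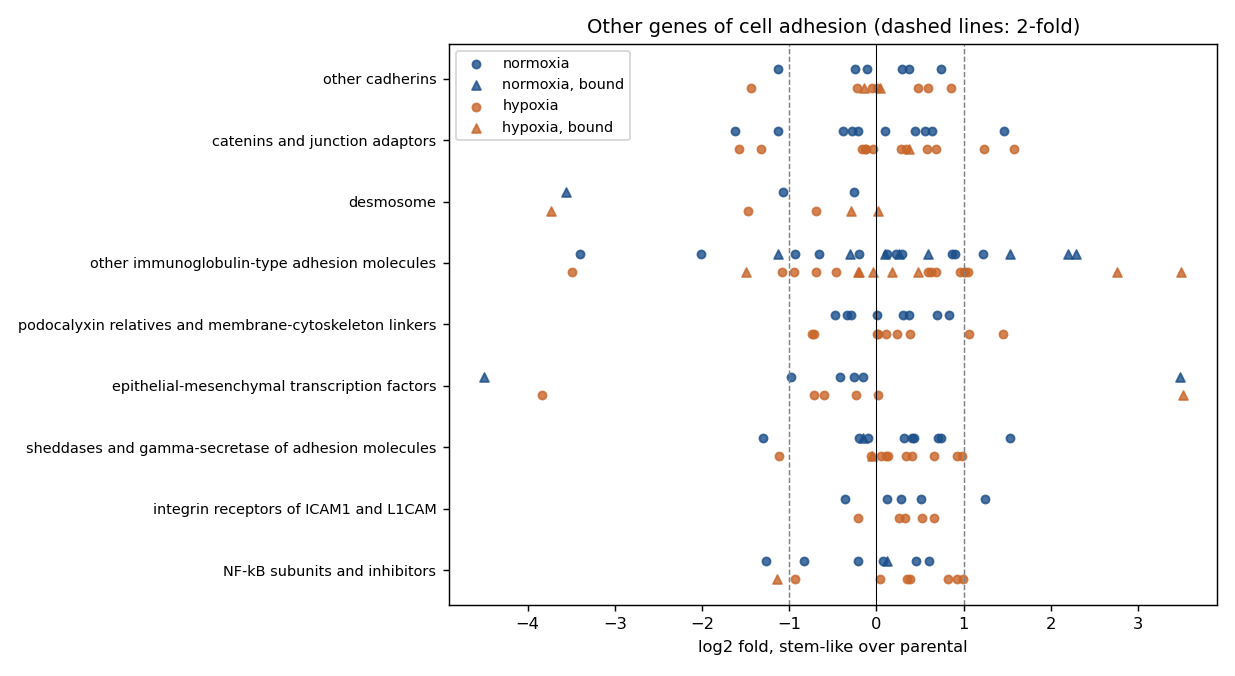
Log2 folds of stem-like over parental cells for every detected gene of 9 further lists, in normoxia (blue) and in hypoxia (orange), with triangles for bounds and dashed lines at 2-fold. SNAI2, DSG2 and CEACAM1 stand farthest to the left and PRRX1 and MPZL2 farthest to the right.

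The genes whose 4 levels ran most like those of a member were found by the distance between centred log2 levels over the 4 arrays, among 9006 genes detected on all of them, for members with a span of at least 1. For CDH2 they were PCBP4 at a distance of 0.04 and NUDT16L1 at 0.05. For PODXL they were S100A4, with levels of 9.04, 9.20, 13.85 and 14.01, at a distance of 0.31, and BST2 at 0.69. With 4 arrays these distances describe a shared split between the cell states and nothing finer.

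**Figure D4:**
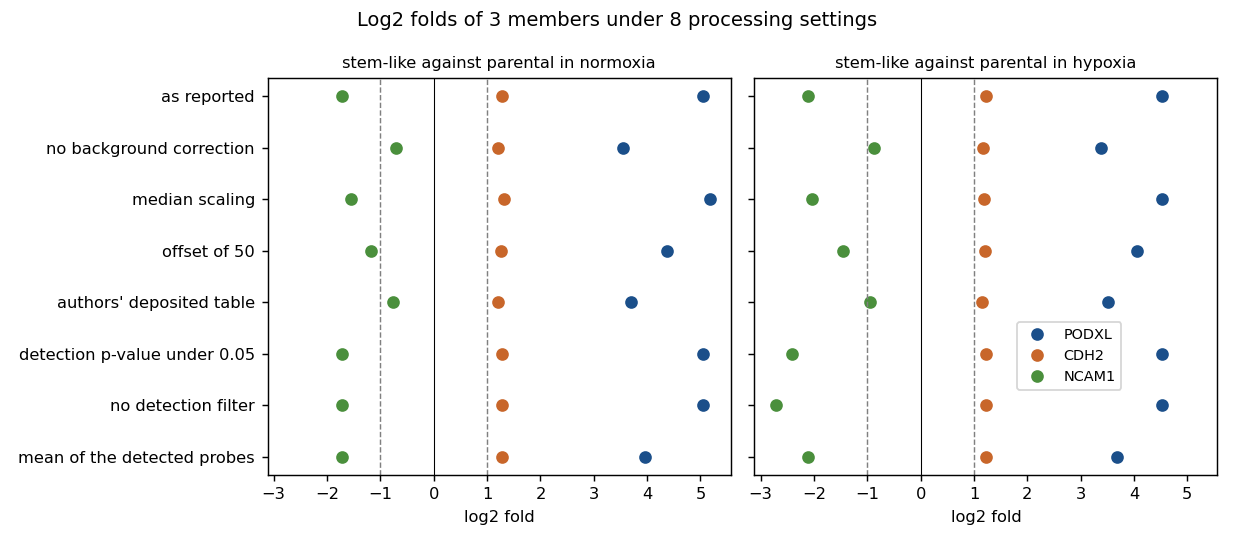
Log2 folds of PODXL, CDH2 and NCAM1 between the cell states under the reported processing and 7 alternatives, in normoxia (left) and hypoxia (right), with dashed lines at 2-fold; NCAM1 in hypoxia is a bound except where no detection filter was used. CDH2 stays between 1.15 and 1.31, PODXL between 3.39 and 5.17, and NCAM1 falls inside 2-fold without background correction and with the authors' deposited table.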

How the data were processed

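Total RNA was extracted with Trizol, copied into biotinylated cRNA and hybridised, per the labels' protocols, to Illumina bead arrays. The deposited non-normalized table holds a mean bead intensity and a detection p-value per probe, per the file headers. A further deposited table of intensity values has nearly the same quantiles on all 4 arrays, a property of the values. Neither the scanner software nor the normalization behind it is given in the sources used here.

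The 47323 value lines of the non-normalized table outnumber its 47315 identifiers, 97.986% of which stand 1 to 8 lines from the values they name, as seen after the values were examined. They were put back in step along 1 ordered path by matching the further table, which raised the Spearman rho with it on the first array from 0.015 to 1.00. Over 6691 genes, levels of 2 probes of a gene, which that match did not use, went from a rho of 0.025 to 0.449.

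Signals were processed with limma 3.58.1 in R 4.3.3: normexp background correction with control mean and SD inferred from detection p-values, an offset of 16, quantile normalization and log2. The brightest probe stands for a gene. Probes were named from the platform annotation, which can be old; 8 probes with several symbols and 17195 with none were not used. The number of arrays limits the precision, and folds of dim genes shrink toward 1. Realignment and normalization were tested on simulated data. For normalization, known folds were put only on probes detected on every array and well above background. Dim signals, such as those of NCAM1 in stem-like cells, were outside that test.

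With 1 array per group, 2-fold is a rule of size, and no test was made. Genes named are all members and their probes, per list up to 4 genes past 2-fold between states in normoxia and up to 2 for hypoxia, and the 2 nearest patterns per member. List genes outside this rule (CTNNA1, EZR, NHERF1, ZEB2, TWIST1, NFKBIA, MCAM, PODXL2 and ENG) were named after their values were seen. Of 164 entries in 10 lists, 155 had a probe. Members and lists were chosen with earlier results of these data known. Alternatives are given at the close.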

Additional observations from a re-analysis of the deposited data

Results flagged for a closer look

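ICAM1 had hypoxia log2 folds of opposite sign in the cell states, -0.40 in parental and 0.15 in stem-like cells, a difference of 0.55. The difference was not tested, each fold rests on 1 array per group, and the parental fold was -0.15 without background correction and -0.16 from the authors' deposited table. The stem-like fold lay inside the between-probe SD of 0.23, so its sign is not settled, and ICAM1 has only 1 probe.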

How the results depend on the processing

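No analysis paired by replicate was possible because each group holds 1 array and the groups share no second replicate number, and no replicate could be left out. An additive fit of cell state and oxygen, which pairs the cell states by oxygen condition and would leave 1 residual degree of freedom, was not run. Of the recomputed counts of members past the threshold, 39 stayed within 1.5 times, including 2 in place of 3 for both cell state comparisons without background correction and with the authors' deposited table, where NCAM1 lay inside 2-fold. With 1.5-fold in place of 2-fold, 1 member, PODXL, passed for hypoxia in parental cells in place of 0. Recomputed member log2 folds moved by less than the between-probe SD in 127 cases and by more in 27, with no change of sign past 2-fold. Of the list counts, 260 stayed within 1.5 times and 60 did not.

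Over all genes, counts past 2-fold depended on the background step. Higher and lower in the stem-like state under normoxia numbered 718 and 632 as reported, 315 and 229 without background correction, 346 and 257 from the authors' table, 509 and 405 with an offset of 50, and 1517 and 1573 at 1.5-fold. In hypoxia the pairs in that order were 796 and 657, 339 and 261, 373 and 286, 548 and 418, and 1632 and 1658. For hypoxia in parental cells they were 40 and 8, 18 and 1, 20 and 1, 27 and 1, and 191 and 110, with 55 and 15 when no detection filter was used. In stem-like cells they were 52 and 20, 10 and 2, 11 and 2, 24 and 6, and 312 and 198, with 34 and 19 under median scaling. For the difference of hypoxia log2 folds they were 29 and 31, 2 and 4, 3 and 5, 6 and 12, and 269 and 268, with 122 and 92 without the filter and 24 and 39 under median scaling. Signal over background limits what can be said of CDH1, CDH3, CDH11 and L1CAM, whose probes stood at or near the negative controls. It also limits the fold sizes of NCAM1, at raw signals of 132 and 113 in stem-like cells, and PODXL, at 151 and 187 in parental cells. ICAM1 was dim as well, at levels of 5.83 to 6.23.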

Other observations

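The printed identifiers of the non-normalized table would give other values for the same probes. By the printed identifier, the CDH2 probe would read raw signals of 200.05, 185, 160.2 and 166, in place of 1528, 1499, 2911 and 2853 after realignment, which turns its direction between the cell states. The brightest PODXL probe would read 110, 121, 119 and 115, with no difference between the states, in place of 151, 187, 1721 and 1890.2. The CDH2 and PODXL identifiers stood 1 line from their values.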
